A study of Danio rerio with 5 samples.

Results

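Cardiomyocyte wells from the border zone, the heart muscle beside an injury, were compared between 7 and 1 days post-cryo-injury (dpci) in adult zebrafish. The wells were chosen by 6 cardiac muscle genes: a well was kept when it held at least 500 unique molecular identifiers (UMIs, each standing for 1 captured transcript) outside the ERCC spike-ins, and when myl7, cmlc1, actc1a, tnnt2a, vmhc and tnni1b together held at least 4% of those UMIs. This kept 642 wells on the 3 plates of 7 dpci (177, 235 and 230 on plates 1, 2 and 3) and 237 wells on the 1 dpci plate, that is 879 of 1002 wells of sufficient depth at these times and of 1302 over all 5 plates of the series. All plates held ventricular cells of TL fish carrying the TgBAC(nppa:mCitrine) reporter, whose ventricle tip had been frozen with a cold copper probe. Cells were sorted on the reporter, 1 per well, and made into SORT-seq libraries, a plate form of CEL-Seq2. The protocol given for every plate also names myl7:GFP expression in this sort. There was no uninjured plate, and although several hearts were used per time point, neither the labels nor the methods say which hearts went into which plate or whether plates share fish, so p-values measure only the spread between plates, which may be technical. The remaining plate, of 3 dpci, gives values for orientation only.

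Border zone cardiomyocytes surround the wound and express natriuretic peptide genes, which adult ventricular muscle away from an injury keeps low. They loosen their sarcomeres, switch on immediate early transcription factors and divide, and then regain a contractile state that relies on mitochondrial oxidative phosphorylation (OXPHOS). In OXPHOS the respiratory complexes I to IV pass electrons to oxygen and pump protons, and ATP synthase uses the proton gradient to make ATP. The malate-aspartate shuttle carries the electrons of glycolytic NADH into mitochondria.

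The plates differed in more than time. Plate sums of nuclear UMIs in the cardiomyocyte wells were 275258, 712706 and 628409 at 7 dpci and 783798 at 1 dpci, and median nuclear UMIs per well were 982, 2160 and 2071 at 7 dpci against 2396 at 1 dpci. The names under which the plates were deposited carry 1 sequencing run for 1 and 3 dpci, another for plate 1 of 7 dpci and yet another for plates 2 and 3, so time and run cannot be told apart. Markers of other cell types held a small share of UMIs in the cardiomyocyte wells. The 7 neutrophil markers held 0.0004% to 0.0011% of nuclear UMIs at 7 dpci and 0.0237% at 1 dpci. The 11 endothelial or endocardial markers held 0.0002% to 0.0022% and 0.0167%, and the 18 macrophage markers 0.0007% to 0.0151% and 0.012%. At 1 dpci, 109 of 237 wells had a UMI of a neutrophil marker, 86 of an endothelial or endocardial and 65 of a macrophage one. There, mmp13a alone held 113 of the 186 neutrophil marker UMIs, and 2 of the 7 markers, lyz and npsn, held none. AQP8 alone held 100 of the 131 endothelial or endocardial UMIs, and 4 of the 11 markers held none. The neutrophil and the endothelial or endocardial shares at 1 dpci thus rested mostly on 1 gene each. The 94 macrophage marker UMIs there were spread over more genes, marco holding the most with 15. On plates 1, 2 and 3 of 7 dpci, wells with a neutrophil marker UMI numbered 1, 2 and 5. They numbered 3, 4 and 1 for endothelial or endocardial and 2, 4 and 14 for macrophage markers. The 16 epicardial or fibroblast markers held 0.021% to 0.0247% at 7 dpci, with a UMI in 26, 70 and 56 wells. They held 0.0351% at 1 dpci, with a UMI in 141 wells. Members of this list went different ways. Of its 68, 157 and 132 UMIs at 7 dpci, podxl held 53, 132 and 109, and of 275 at 1 dpci, 110. The collagen gene col1a1a held 0 on each 7 dpci plate against 64, and COL1A1 3, 1 and 4 against 36. The 14 cardiomyocyte markers outside the rule held 6.52% to 6.65% at 7 dpci and 7.16% at 1 dpci, with at most 1 of them at 0 on any plate. Of their UMIs, mb alone held 9419 of 17957, 23478 of 47381 and 18819 of 41324 at 7 dpci and 22062 of 56110 at 1 dpci. In the wells below the 4% limit the 14 held 0.967% to 1.92% at 7 dpci and 1.61% at 1 dpci. Since the wells were chosen by cardiac muscle genes, these values describe them and are no independent check of the label. Mitochondrially encoded genes, left out of all tests, held 7.90%, 4.87% and 4.76% of non-ERCC UMIs at 7 dpci and 9.82% at 1 dpci.

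The 6 genes that defined the wells held a larger share at the later time, which is a description and not a finding. Their share per well had medians of 17.4%, 18.1% and 17.6% on the 7 dpci plates and 10.4% on the 1 dpci plate. The wells nearest the limit had 4.16%, 4.68% and 5.55% inside and 3.68%, 3.62% and 3.57% outside it at 7 dpci, and 4.01% inside and 3.93% outside it at 1 dpci. The share rested on 3 genes. The regulatory myosin light chain gene myl7 held 93609, 78855 and 75890 UMIs per 1000000 nuclear UMIs at 7 dpci against 46612 at 1 dpci. The myosin light chain gene cmlc1 held 35536, 44071 and 43186 against 24614, and the cardiac actin gene actc1a 21124, 34952 and 31940 against 11937. The ventricular myosin heavy chain gene vmhc held 8375, 10603 and 13184 at 7 dpci and 12563 at 1 dpci, and tnnt2a, cardiac troponin T, 8133, 10479 and 11228 against 9766, and the troponin I gene tnni1b 4220, 6172 and 7047 against 4576. For these 3 genes the 1 dpci plate lay within the range of the later plates.

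**Figure D1:**
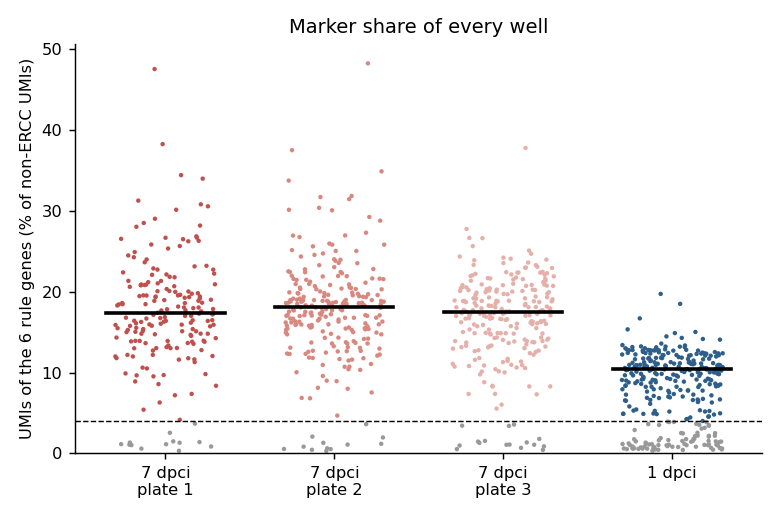
Share of non-ERCC UMIs (%, vertical axis) held by the 6 genes of the rule in every well with at least 500 such UMIs, by plate. Coloured points are cardiomyocyte wells, grey points the wells below the 4% limit (dashed line) and black bars the medians of the cardiomyocyte wells, which were 17.4%, 18.1% and 17.6% at 7 dpci and 10.4% at 1 dpci.

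UMIs of the cardiomyocyte wells were summed per plate and compared with edgeR, whose quasi-likelihood test took its spread from the 3 plates of 7 dpci and assumed that the lone 1 dpci plate varies like them. Levels are given as CPM, counts scaled to a TMM-adjusted library total, and a gene was called at a Benjamini-Hochberg adjusted p under 0.05. Of 4393 genes tested, 57 were called (1.3%), 31 higher at 7 dpci (0.706%) and 26 lower (0.592%). Of these, 3 higher ones were genes of the rule and are left out below, which leaves 28 higher and 26 lower. At an unadjusted p under 0.05, 378 genes were higher and 241 lower. The log2 fold change was above 0 for 2060 of the 4393 genes and below 0 for 2333. These counts are the background for the list counts below. All 3 plates of 7 dpci lay above the 1 dpci plate for 1093 genes (24.9%) and below it for 1397 (31.8%). The split depended on scaling. With library totals in place of TMM, the median over all genes was -0.58 on the log2 scale (-0.06 with TMM) with 13 higher and 49 lower calls, so fold changes are best read against that median, and DESeq2 gave 139 higher and 33 lower. Without plate 1, the shallowest, 798 genes were called, and without plate 2, 108. Keeping only wells of at least 1000 UMIs, which were 97, 196 and 189 wells at 7 dpci and 210 at 1 dpci, left 17 calls, and 14 of the 54 called genes outside the rule were called in each of the 16 alternatives that could be fitted for single genes. These were FOS, egr1, hsp90aa1.1, nppb and VEZF1, all lower, and KCNV1, ANXA6, actc1c, DBI, atp5mea and 4 unnamed genes, all higher. Tested genes had a mean of at least 10 CPM over the 4 plates. VEZF1 and egr1 passed this filter only through the 1 dpci plate. ANXA6, actc1c and the unnamed ENSDARG00000077402 passed it only through the 7 dpci plates. The alternatives reuse the same plates, so a call kept in each of them is not independent evidence.

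Natriuretic peptide transcripts were lower at 7 dpci, although the cells had been sorted on an nppa reporter. The atrial natriuretic peptide gene nppa had 389, 302 and 334 CPM at 7 dpci against 1161 CPM at 1 dpci. All 3 later plates lay below the earlier one, with a mean of 342 ± 44.3 CPM (SD, n = 3) and a log2 fold change of -1.77 ± 0.25 (SE, edgeR adjusted p = 0.0271). The brain-type peptide gene nppb had 107, 169 and 182 CPM against 875 CPM, a log2 fold change of -2.50 ± 0.32 (edgeR adjusted p = 0.0186). In plate sums, fewer wells with a transcript and fewer transcripts per well cannot be told apart, so the share of wells with a UMI is given too. It was 21.5%, 34.04% and 34.35% for nppa at 7 dpci and 75.1% at 1 dpci (exact 95% binomial intervals 15.7% to 28.3%, 28.01% to 40.5%, 28.2% to 40.9%, and 69.1% to 80.5%). With each well thinned to 1000 nuclear UMIs, which kept 87, 187 and 182 wells at 7 dpci and 196 at 1 dpci, the nppa shares were 24.1%, 17.1% and 22.5% against 63.8%, and the nppb shares 11.5%, 10.2% and 8.24% against 49.5%. The shares were thus lower at equal depth too. The deepest 1 dpci well held 18.2% of that plate's nppa and 21.01% of its nppb UMIs. Intervals, and limits drawn from a count of 0, cover counting error only. Restricting the sums to wells of at least 1000 UMIs ended the nppa call (edgeR adjusted p = 0.0643).

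Immediate early genes are mostly transcription factors induced within minutes of a stimulus. Of 35 matched, 25 passed the level filter. Some, such as egr1, passed only through their level on the 1 dpci plate, so direction and median only describe the list. Lower at 7 dpci were 22 of the 25, with a median log2 fold change of -1.95 against -0.06 for all genes. The median differed between plates (-1.07, -2.51 and -2.84 against 1 dpci) and ran from -2.43 to -1.19 over the alternatives. Called lower were 5 members (0.592% over all genes) and called higher none. The AP-1 subunit FOS had 38.2, 78.5 and 78.6 CPM at 7 dpci and 687 CPM at 1 dpci (log2 fold change -3.35 ± 0.38, edgeR adjusted p = 0.0143). The stress-induced factor ATF3 had 41.97, 12.3 and 12.5 CPM against 392 CPM (-4.32 ± 0.55, edgeR adjusted p = 0.0182). The zinc finger factor egr1 had 7.63, 1.54 and 5.36 CPM against 177 CPM (-5.33 ± 0.61, edgeR adjusted p = 0.0149). The other called members were the AP-1 subunits JUN and JUNB, with log2 fold changes of -3.25 and -3.39. JDP2, an AP-1 repressor outside the list, was among the 10 largest decreases at 7.63, 6.16 and 7.14 CPM against 160 CPM (-4.51 ± 0.50, edgeR adjusted p = 0.0143). JDP2, JUNB and egr1 averaged under 10 CPM over the 7 dpci plates and so passed the level filter only through the 1 dpci plate. Their fold changes and p-values therefore only describe the values. The most abundant member, the antiproliferative gene BTG1, lay on the other side, at 1599, 1096 and 1366 CPM against 864 CPM (0.65 ± 0.28, edgeR adjusted p = 0.35).

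A large part of these UMIs lay in 1 well. The deepest cardiomyocyte well of the 1 dpci plate held 4.66% of the plate's nuclear UMIs but 70.29% of its JDP2, 63.02% of its egr1, 53.5% of its FOS, 36.6% of its JUN and 21.6% of its ATF3 UMIs. Leaving out wells above 3 times the median depth of their plate kept the calls of FOS (log2 fold change -2.26), egr1 (-4.12), JUN (-2.92) and ATF3 (-4.06) and ended those of JDP2 (-3.08, edgeR adjusted p = 0.0757) and JUNB (-3.48, edgeR adjusted p = 0.0767). Weighing all wells equally ended the calls of JUN (-2.27, edgeR adjusted p = 0.147), JDP2 (-3.04, edgeR adjusted p = 0.108) and JUNB (-3.46, edgeR adjusted p = 0.0873). By wells, FOS was detected in 2.26%, 7.23% and 7.39% at 7 dpci and in 47.7% at 1 dpci, and ATF3 in 1.69%, 2.13% and 2.17% against 44.3%. In wells thinned to 1000 nuclear UMIs the FOS shares were 3.45%, 3.21% and 3.85% against 29.6%, so its lower detection at 7 dpci did not rest on that well alone.

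Heat shock chaperones, which refold proteins, were mostly lower too. Of 22 tested, 16 had a lower level at 7 dpci, all 3 plates lay below 1 dpci for 15 (31.8% over all genes) and 2 were called, both lower (0.592% over all genes), with a list median of -0.88. The inducible muscle chaperone hsp90aa1.1, which folds myosin in zebrafish skeletal muscle, had 49.6, 63.1 and 67.9 CPM at 7 dpci against 670 CPM at 1 dpci (-3.45 ± 0.31, edgeR adjusted p = 0.00734), and HSP90AA1 41.97, 23.1 and 10.7 CPM against 230 CPM (-3.29 ± 0.55, edgeR adjusted p = 0.0404). Of hsp90aa1.1, the deepest 1 dpci well held 36.4%. The HSP90AA1 call was lost in 3 of 16 alternatives, among them a marker share of 2% (-2.22, edgeR adjusted p = 0.21). Outside the list, and named after its values were seen, HSPA2 was called lower too (-2.83 ± 0.49, edgeR adjusted p = 0.0412). Its call was lost in 6 of 16 alternatives. The 2 most abundant members were not called: hspb6, a small chaperone, had 2121, 2653 and 2463 CPM against 2668 CPM, and the constitutive HSPA8 had 2869, 2244 and 2122 CPM against 1798 CPM (edgeR adjusted p = 0.872 and 0.539).

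**Figure D2:**
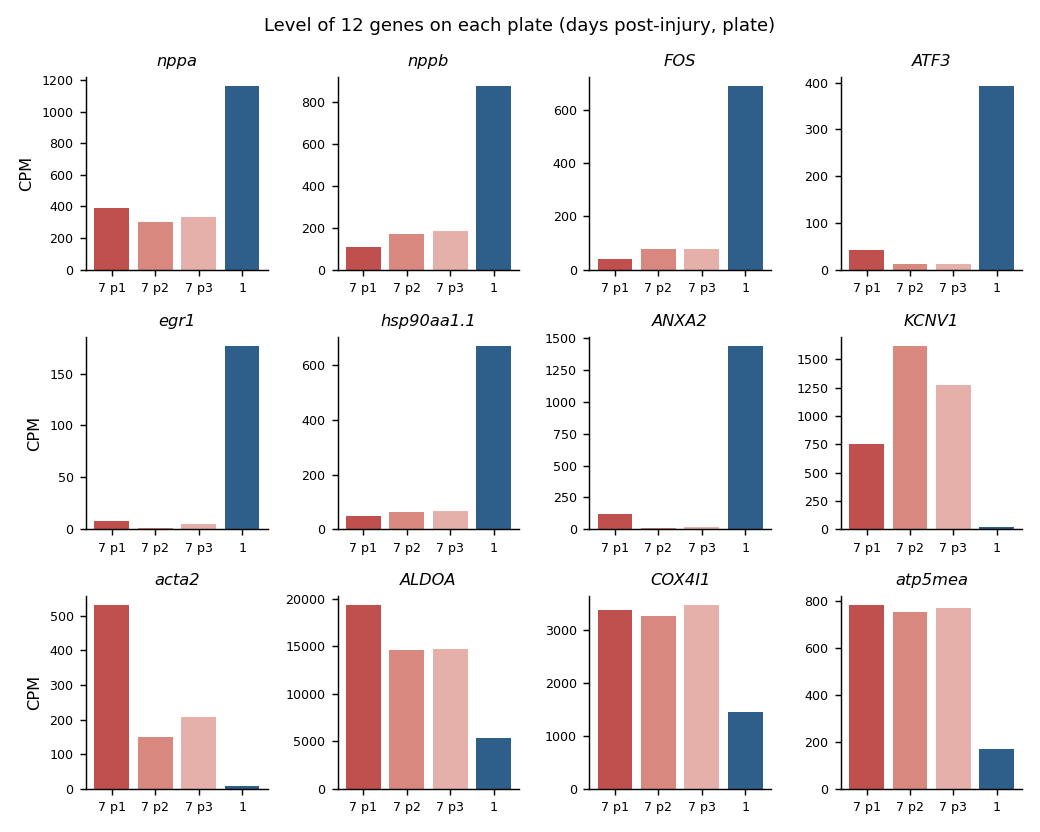
CPM (vertical axes, each starting at 0) of 12 genes on plates 1, 2 and 3 of 7 dpci (red shades) and on the 1 dpci plate (blue), 1 bar per plate and so without error bars. All 3 later plates lie below 1 dpci for nppa, nppb, FOS, ATF3, egr1, hsp90aa1.1 and ANXA2, and above it for KCNV1, acta2, ALDOA, COX4I1 and atp5mea.

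Cytoskeletal and matrix genes held further decreases. Of 33 tested actin cytoskeleton genes, 26 had a lower level at 7 dpci, with a median of -0.57. Called were 3 lower and 1 higher (0.592% and 0.706% over all genes). ANXA2, a membrane- and actin-binding annexin, had 118, 12.3 and 14.3 CPM at 7 dpci and 1441 CPM at 1 dpci (-5.16 ± 0.86, edgeR adjusted p = 0.0404), a call that DESeq2 did not make (adjusted p = 0.141). The non-muscle actin gene actb1 was called, with 103, 64.6 and 58.9 CPM against 332 CPM (-2.17 ± 0.38, edgeR adjusted p = 0.0436), and its paralog actb2, with 1503, 1262 and 1231 CPM against 2160 CPM (-0.70 ± 0.22, edgeR adjusted p = 0.19), was not. The alpha-tubulin gene tuba1b, a member of this list that lies outside actin filaments, was called lower with 412, 659 and 605 CPM against 1618 CPM (-1.53 ± 0.28, edgeR adjusted p = 0.0498), a call lost in 6 of 16 alternatives. ANXA6, the other annexin called, was higher and is described with the increases. The more abundant of 2 genes listed as MYL9, a regulatory light chain of non-muscle and smooth muscle myosin, had 2701, 2799 and 2552 CPM against 1276 CPM (1.07 ± 0.22, edgeR adjusted p = 0.061).

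Of 36 matched matrix genes, 11 passed the level filter, some of them only through their level on the 1 dpci plate, so their direction is not read as a result. Called were 2, both lower (0.592% over all genes) and both with no UMI on any 7 dpci plate. FN1, the matrix glycoprotein fibronectin, had 125 UMIs in 38.4% of the 1 dpci wells and mmp13a, a collagenase, 113 UMIs in 35.4%. ACOD1, the itaconate-producing enzyme of activated myeloid cells, also had no UMI at 7 dpci and 131 UMIs in 36.7% of the wells at 1 dpci. Against a floor of 3 UMIs over the 3 later plates, the level at 7 dpci was at least 63.5-fold lower for ACOD1, 60.6-fold for FN1 and 54.7-fold for mmp13a (edgeR adjusted p = 0.0271, 0.0271 and 0.0304). VEZF1, a zinc finger factor of vessels, had 0, 0 and 1 UMIs at 7 dpci and 126 at 1 dpci, a 7 over 1 ratio of 0.00546 with a 95% counting interval of 0.000137 to 0.031. The water channel gene AQP8 had 0, 2 and 0 UMIs against 100. ACOD1, FN1, mmp13a, VEZF1 and AQP8 all passed the level filter only through the 1 dpci plate. Their ratios, fold limits and p-values therefore only describe the values. ITGA5, an integrin subunit that binds fibronectin, was the most abundant gene of the matrix list, and 86.96% of its plate 1 UMIs came from 1 well (232.7, 7.69 and 12.5 CPM against 23.7 CPM, edgeR adjusted p = 0.77).

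Many of the genes that were lower at 7 dpci were more abundant in the wells of the 1 dpci plate that the marker rule had set aside. These 82 wells held 465810 nuclear UMIs, and the 13, 12 and 16 such wells of the 7 dpci plates 13676, 7234 and 34416. Within the 1 dpci plate, 20 of the 26 called decreases had a lower level in cardiomyocyte wells, in UMIs per 1000000 nuclear UMIs, than in those 82 wells (76.9%, against 45.3% over all 4393 genes), and for 10 of them (38.5%, against 4.78%) the ratio was under 0.15. The ratio was 0.0616 for ACOD1, 0.0636 for actb1, 0.0799 for mmp13a, 0.0813 for AQP8 and 0.131 for FN1. The UMIs were thinly spread: the well with the most mmp13a in the cardiomyocyte class held 2.65% of them, and the well with the most ACOD1 5.35%. Of the 26, mmp13a is on the neutrophil marker list and AQP8 on the endothelial one. Leaving out wells in which other-cell markers together passed 0.5% of UMIs gave 25 lower calls. This kept 232 of the 237 cardiomyocyte wells at 1 dpci, so it could remove few UMIs that are spread this thinly. Whether transcripts of the set-aside cells reached the cardiomyocyte wells was not tested. The other 6 of the 26 were higher in the cardiomyocyte wells, with ratios of 7.61 for hsp90aa1.1, 7.49 for VEZF1, 6.97 for the unnamed ENSDARG00000016015, 3.41 for nppa, 2.02 for tuba1b and 1.13 for egr1. The ratio was 0.567 for FOS, 0.518 for ATF3 and 0.351 for nppb. ENSDARG00000016015 had 0, 18.5 and 23.2 CPM at 7 dpci and 336 CPM at 1 dpci (-4.38 ± 0.66, edgeR adjusted p = 0.0304, and DESeq2 adjusted p = 0.325, not called). The LIM domain gene crip1, with a ratio of 0.0833, had 3.82, 6.16 and 1.79 CPM against 97.7 CPM (-4.54 ± 0.72, edgeR adjusted p = 0.0321). As crip1 passed the level filter only through the 1 dpci plate, its fold change and p-value only describe its values.

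**Figure D3:**
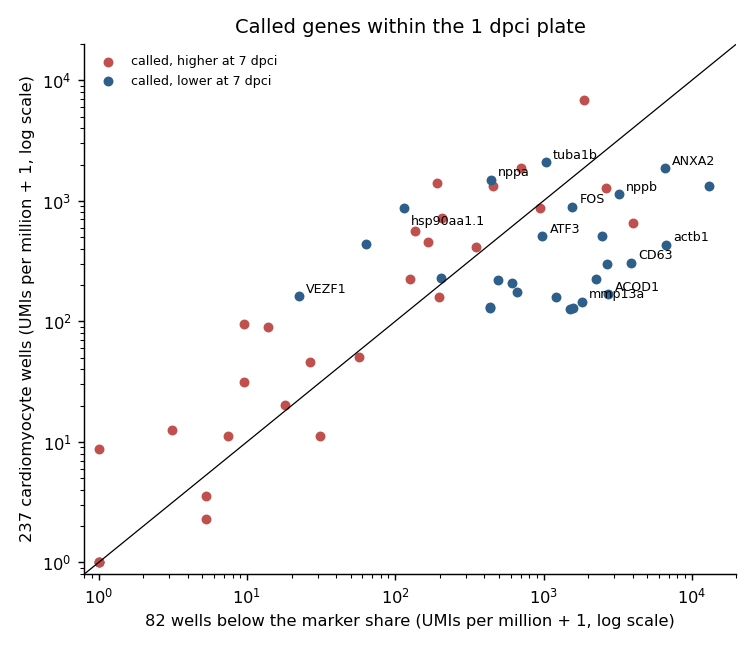
Level of the 54 called genes outside the rule within the 1 dpci plate, in its 237 cardiomyocyte wells (vertical axis) against its 82 wells below the marker share (horizontal axis), both in UMIs per 1000000 nuclear UMIs plus 1 on log scales. The line marks equal levels, and 20 of the 26 genes called lower at 7 dpci (blue) lie below it.

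Nuclear transcripts of complexes I and IV and of ATP synthase were mostly higher at 7 dpci, by less than 1 on the log2 scale at the median, while those of complexes II and III went both ways. The 13 mitochondrially encoded protein genes, all subunits of these complexes, had a lower share at 7 dpci, with 4.18%, 2.29% and 2.31% of non-ERCC UMIs against 5.75% at 1 dpci, and were not tested. Over the 71 tested nuclear genes, 65 had a higher level (2060 of 4393 over all genes) and all 3 plates lay above 1 dpci for 59 (24.9% over all genes). At an unadjusted p under 0.05, 41 were higher and none lower, against 378 higher and 241 lower of all 4393 genes. With library totals, 148 of 4476 genes were higher at that p, so such counts depend on the scaling. After adjustment 4 of the 71 were called, all higher (0.706% over all genes). Medians of the log2 fold change were 0.75 for 34 genes of complex I, 0.81 for 13 of complex IV and 0.92 for 13 of ATP synthase, and 0.26 for 11 of complexes II and III. With library totals they were 0.25, 0.32, 0.43 and -0.24, so the direction for complexes II and III depended on the scaling. Called were NDUFB1, an accessory subunit of complex I, at 1084, 971 and 973 CPM against 353 CPM (1.52 ± 0.26, edgeR adjusted p = 0.0412), and 3 subunits of complex IV. COX4I1 had 3365, 3268 and 3459 CPM at 7 dpci and 1456 CPM at 1 dpci (1.21 ± 0.22, edgeR adjusted p = 0.0457). The complex IV genes cox6b1 and cox6c had log2 fold changes of 1.43 ± 0.25 and 1.28 ± 0.23 (edgeR adjusted p = 0.0456 and 0.0457). All 4 calls were lost with library totals, without plate 3 of 7 dpci or with at least 1000 UMIs per well. Over these edgeR adjusted p ran to 0.145. The calls of COX4I1 and cox6c were also lost without plate 2. With mitochondrial genes kept, COX4I1, cox6b1 and cox6c were not called (edgeR adjusted p = 0.05935, 0.05437 and 0.05737).

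No listed ATP synthase gene was called, though all 13 lay above 1 dpci on every later plate. The catalytic subunit ATP5F1B had 5189, 8344 and 8733 CPM against 4056 CPM (0.87 ± 0.31, edgeR adjusted p = 0.251), and the ring subunit atp5mc3b 7062, 5611 and 6551 CPM against 3378 CPM (0.92 ± 0.22, edgeR adjusted p = 0.0953). Outside the lists, and named after their values were seen, the ATP synthase membrane subunits atp5mea (2.16 ± 0.28) and atp5md (1.54 ± 0.24) and ndufa4b, a partner of complex IV (1.495 ± 0.24), were called, with edgeR adjusted p = 0.0192, 0.0308 and 0.0321. The plates of atp5mea were close, at 782, 754 and 770 CPM against 172 CPM. The most abundant members of complex I were NDUFB9 (820, 1083 and 1166 CPM against 476 CPM, edgeR adjusted p = 0.125) and NDUFS8 (1293, 859 and 936 CPM against 930 CPM, edgeR adjusted p = 0.917). Of complexes II and III, UQCRQ had 2762, 1563 and 1797 CPM against 1080 CPM, and CYC1, cytochrome c1, 641, 1062 and 1104 CPM against 839 CPM (edgeR adjusted p = 0.272 and 0.917). The later plates thus overlapped the earlier one for NDUFS8 and CYC1.

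Of 21 tested glycolysis genes 1 was called (0.706% higher over all genes): the more abundant of 2 genes listed as ALDOA, aldolase, with 19328, 14607 and 14774 CPM at 7 dpci and 5351 CPM at 1 dpci (1.60 ± 0.25, edgeR adjusted p = 0.0307), a call that library totals ended (edgeR adjusted p = 0.0761). The other ALDOA gene had 0.91 ± 0.24 (edgeR adjusted p = 0.124). GAPDH had 22281, 27488 and 27919 CPM against 15223 CPM (0.77 ± 0.21, edgeR adjusted p = 0.137), and HK1, which commits glucose to the cell, 129.7, 138.5 and 150.0 CPM against 172.8 CPM (-0.30 ± 0.33, edgeR adjusted p = 0.80). None of the 16 genes of the TCA cycle, 5 of the malate-aspartate shuttle or 20 of fatty acid oxidation was called. At an unadjusted p under 0.05, 3, 2 and 3 of them were higher and none lower, against 378 higher and 241 lower of all 4393 genes. The shuttle enzymes MDH1 and MDH2, which interconvert malate and oxaloacetate in cytosol and mitochondria, had 3083, 4076 and 4452 CPM against 1793 CPM (1.11 ± 0.27, edgeR adjusted p = 0.0953) and 4758, 6769 and 6653 CPM against 3828 CPM (0.66 ± 0.26, edgeR adjusted p = 0.285). DESeq2, which called 139 genes higher where edgeR called 31, called MDH1 (DESeq2 adjusted p = 0.00734). DESeq2 results for the other uncalled genes of this paragraph are not given here. The symbol MDH1 does not say which of the study's paralogs, mdh1aa or mdh1ab, this gene is. IDH2 of the TCA cycle had 4639, 7910 and 7719 CPM against 3500 CPM (0.95 ± 0.32, edgeR adjusted p = 0.219), PDHB of pyruvate dehydrogenase 999.6, 1368 and 1293 CPM against 815.5 CPM, and PDK4, which inhibits that complex, 259, 446 and 434 CPM against 461 CPM (edgeR adjusted p = 0.386 and 0.842). FABP3, a fatty acid carrier of heart muscle, had 4361, 3313 and 3551 CPM against 1507 CPM (1.31 ± 0.25, edgeR adjusted p = 0.0541), and ACADVL 1290, 2150 and 2368 CPM against 1195 CPM (edgeR adjusted p = 0.446). Medians were 0.38 for glycolysis, 0.29 for the TCA cycle, 0.28 for the shuttle and 0.43 for fatty acid oxidation, and all 4 were below 0 with library totals (-0.11, -0.21, -0.22 and -0.07), while each stayed above the median of all genes under that scaling.

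DBI, an acyl-CoA binding protein called higher and named after its values were seen, had 1354, 1288 and 1343 CPM at 7 dpci and 321 CPM at 1 dpci (2.05 ± 0.25, edgeR adjusted p = 0.0162), and its mitochondrial binding partner tspo 183, 235 and 169.7 CPM against 34.6 CPM (2.50 ± 0.43, edgeR adjusted p = 0.0416). The oxygen store myoglobin, mb, was among the most abundant transcripts of all plates at 35936, 36129 and 33610 CPM against 21781 CPM (0.69 ± 0.18, edgeR adjusted p = 0.126). The muscle creatine kinase gene ckma had 4792, 5549 and 6930 CPM against 5990 CPM (-0.06 ± 0.24, edgeR adjusted p = 0.966).

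**Figure D4:**
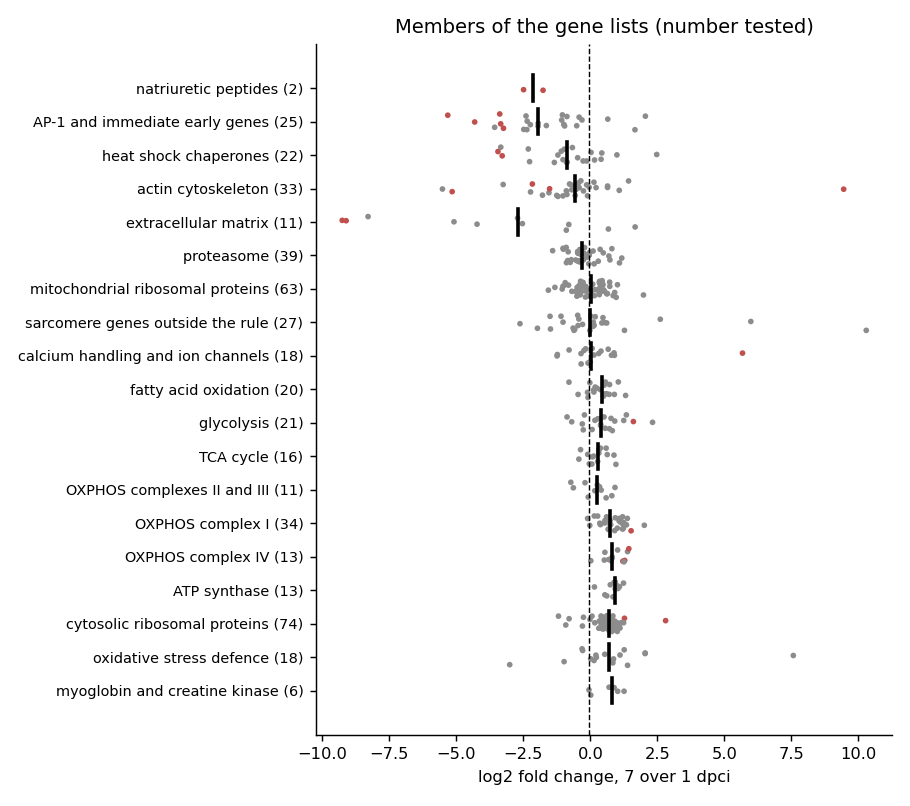
Log2 fold change, 7 over 1 dpci (horizontal axis), of every tested member of 19 gene lists, with the number tested in brackets. Red points were called in either direction, black bars are list medians (0.92 for ATP synthase, -1.95 for immediate early genes) and the dashed line is the median of all genes tested, -0.06.

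Sarcomere genes outside the rule did not move together, and none of 27 was called. All 3 later plates lay above 1 dpci for 7 (25.9%, against 24.9% over all genes) and below it for 11 (40.7%, against 31.8%), and the median was -0.02. At an unadjusted p under 0.05, 4 were higher and 8 lower, against 378 higher and 241 lower of all 4393 genes. The abundant tropomyosin gene tpm4a had 13811, 15638 and 16465 CPM at 7 dpci and 10614 CPM at 1 dpci (0.53 ± 0.20, edgeR adjusted p = 0.272), and the Z-disc gene actn2b 3701, 4910 and 5671 CPM against 4715 CPM (0.01 ± 0.26, edgeR adjusted p = 0.992). Named after their values were seen, xirp1 and XIRP2, which bind actin at intercalated discs, had log2 fold changes of -1.49 and -2.63, and UNC45B, a myosin chaperone, -1.51 (edgeR adjusted p = 0.156, 0.109 and 0.187). The largest fitted change of all genes tested belonged to the gene listed as myh6, a myosin heavy chain, which was not called: its UMIs numbered 0, 459 and 15 at 7 dpci and 0 at 1 dpci (edgeR adjusted p = 0.307).

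Muscle actin genes of low level gave 2 of the higher calls (0.706% over all genes). Both passed the level filter only through the 7 dpci plates, so their fold values and p-values only describe them. The gene actc1c, a paralog of the cardiac actin gene in the rule, had 41, 47 and 42 UMIs at 7 dpci and none at 1 dpci. Against a floor of 3 UMIs on the 1 dpci plate its level was at least 34.2-fold higher (edgeR adjusted p = 0.0271). It was detected in 19.8%, 14.5% and 15.2% of the later wells and in 0 of 237 earlier ones. For the earlier wells, a limit of 3 wells, used in place of an exact interval, is a share of 1.27%. The smooth muscle actin gene acta2 had 530, 151 and 209 CPM against 8.89 CPM (5.001 ± 0.93, edgeR adjusted p = 0.0498), a call lost in 5 of 16 alternatives, library totals among them (edgeR adjusted p = 0.068). Of the pair of genes listed as ACTA1, skeletal actin, 1 had 7115, 11581 and 10868 CPM against 6620 CPM and the other 675, 483 and 793 CPM against 1348 CPM (edgeR adjusted p = 0.45 and 0.138). Actin paralogs are nearly identical in coding sequence, so how reads were divided among them, and actc1a of the rule, is uncertain.

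Of 18 genes of calcium handling and ion channels 1 was called (0.706% higher over all genes). KCNV1, a modifier subunit of voltage-gated potassium channels, had 752, 1620 and 1272 CPM at 7 dpci and 23.7 CPM at 1 dpci (5.67 ± 0.58, edgeR adjusted p = 0.0103). It was detected in 48.02%, 77.02% and 74.3% of later wells and 6.33% of earlier ones, and in 55.2%, 70.6% and 63.7% against 2.04% after thinning, so 1 UMI or more was found in most wells of the thinned later plates and in few of the earlier one. The calcium pump atp2a2a had 2426, 3639 and 3763 CPM against 1905 CPM and the calcium store protein CASQ2 1015, 1159 and 1157 CPM against 598 CPM (0.78 ± 0.29 and 0.89 ± 0.24, edgeR adjusted p = 0.272 and 0.136).

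The largest increases included genes from outside the lists. All named here but ENSDARG00000096016 were under 10 CPM at 1 dpci and passed the level filter only through the 7 dpci plates. Their fold limits and p-values only describe them. ENSDARG00000077402, without a symbol in the table used, had 46, 173 and 142 UMIs at 7 dpci and 0 at 1 dpci, which is 78.3-fold higher or more (edgeR adjusted p = 0.00734), and 0 at 3 dpci. ANXA6, a calcium-dependent membrane-binding annexin, had 21, 110 and 92 UMIs against 0, or 46.6-fold higher or more (edgeR adjusted p = 0.016), and 28 at 3 dpci. The netrin-family gene ntn5 had 18, 34 and 24 UMIs against 1, a ratio of 52.3 with a counting interval from 9.11, and SNORD33, a small nucleolar RNA encoded in an intron of a ribosomal protein gene in mammals, 21, 42 and 70 against 2 (ratio 45.8, interval from 12.4). RIOK2, a kinase of ribosome assembly, had 134, 111 and 189 CPM against 7.90 CPM (4.16 ± 0.60, edgeR adjusted p = 0.0271), and CTH, which makes cysteine, 118, 72.3 and 107 CPM against 5.92 CPM (4.01 ± 0.64, edgeR adjusted p = 0.0321). The unnamed ENSDARG00000096016 had 988, 443 and 436 CPM against 38.5 CPM (3.995 ± 0.63, edgeR adjusted p = 0.0321), and on plate 1 a single well held 82.3% of its UMIs. Of the 28 increases, 6 had no symbol. actc1c and ENSDARG00000077402 were at 0 on the 3 dpci plate too, which carries the same run as 1 dpci, so run and time cannot be told apart here either.

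Cytosolic ribosomal protein genes had a higher level at 7 dpci for 68 of 74, with a median of 0.68 (0.19 with library totals) and 65 above 1 dpci on all 3 plates (87.8%, against 24.9% over all genes). Called were 2, both higher (0.706% over all genes): RPS21, of the small subunit, with 1621, 1683 and 1559 CPM against 673 CPM (1.27 ± 0.24, edgeR adjusted p = 0.0498), and rps11l with 111, 109 and 94.7 CPM against 14.8 CPM (2.80 ± 0.50, edgeR adjusted p = 0.0456). The RPS21 call was lost in 8 of 16 alternatives. The abundant RPS2 and RPLP0 had log2 fold changes of 0.68 ± 0.21 and 0.16 ± 0.30 (edgeR adjusted p = 0.179 and 0.904). Of the mitochondrial ribosomal protein genes, 32 of 63 were higher, with a median of 0.01 and no call. MRPL28 and mrpl34 led them in level (-0.15 ± 0.33 and 0.72 ± 0.49, edgeR adjusted p = 0.926 and 0.603).

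No member was called among 39 proteasome genes (median -0.33), 45 translation initiation factors (0.10), 22 mitochondrial carriers (-0.27) or 18 genes of oxidative stress defence (0.68). For the proteasome, 15 of 39 lay below 1 dpci on all 3 plates (38.5%, near the 31.8% over all genes) and none passed an unadjusted p under 0.05, and its most abundant members PSMC6 and PSMB7 had -0.83 ± 0.55 and -0.55 ± 0.41 (edgeR adjusted p = 0.592 and 0.647). Of the stress genes, 9 were higher and none lower at an unadjusted p under 0.05, against 378 higher and 241 lower of all 4393 genes. The iron store gene fth1a had 0.53 ± 0.21 and the mitochondrial superoxide dismutase SOD2 0.86 ± 0.30 (edgeR adjusted p = 0.282 and 0.221). The carriers SLC25A3, for phosphate, and SLC25A5, for ADP and ATP, had 0.08 ± 0.24 and -0.55 ± 0.55, and the initiation factors eif5a and EIF1 0.46 ± 0.22 and 0.31 ± 0.24 (edgeR adjusted p = 0.95, 0.77, 0.426 and 0.667).

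Cell cycle genes were sparse: 5 of 31 matched genes reached the level filter and none was called. PCNA, the replication clamp, had 30.5, 72.3 and 82.2 CPM at 7 dpci and 19.8 CPM at 1 dpci (1.68 ± 0.68, edgeR adjusted p = 0.308), with a UMI in 2.26%, 7.66% and 7.83% of wells against 5.49%. The cyclin gene CCND2 had 26.7, 41.6 and 48.2 CPM against 109 CPM, and hmgb2b, a chromatin protein of dividing cells, 68.7, 61.6 and 109 CPM against 34.6 CPM (edgeR adjusted p = 0.193 and 0.363). STMN1, a microtubule regulator of dividing cells named after its values were seen, had 11, 25 and 11 UMIs against 0 (edgeR adjusted p = 0.0618). No difference in these genes was detectable after adjustment at this depth.

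Shares of whole lists in single wells, as a percentage of nuclear UMIs outside the 6 rule genes, show how evenly the wells took part. For OXPHOS the medians were 9.62%, 10.1% and 10.3% at 7 dpci and 7.23% at 1 dpci, and 81.4%, 87.2% and 90.9% of later wells lay above the earlier median. Of the OXPHOS lists, complexes II and III alone went the other way, at 0.755%, 0.767% and 0.756% against 0.841%. Above their earlier median lay 44.1%, 42.1% and 40% of later wells. For glycolysis the medians were 6.90%, 7.33% and 7.04% against 4.82%. Such shares weigh genes by abundance, and the median log2 fold change of the glycolysis list was 0.38, or -0.11 with library totals. For the actin cytoskeleton the medians were 0.963%, 0.937% and 0.933% against 1.87%, with 8.47%, 5.96% and 3.48% of later wells above the earlier median. Immediate early genes had medians of 0.122%, 0.124% and 0.152% against 0.326%, and natriuretic peptides had no UMI in 70.06%, 57.9% and 56.5% of later wells against 9.70% of earlier ones. Sarcomere genes outside the rule had 3.27%, 3.73% and 3.66% against 4.37%. These shares are descriptions, since the wells of a plate share their library.

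The 3 dpci plate, with 243 cardiomyocyte wells, lay between the other times for some of these lists and near 1 dpci for others. For sarcomere genes outside the rule it lay above both times. Their median share was 4.37% at 1 dpci, 4.78% at 3 dpci and 3.27%, 3.73% and 3.66% at 7 dpci. The median share of the actin cytoskeleton was 1.87% at 1 dpci, 1.31% at 3 dpci and 0.963%, 0.937% and 0.933% at 7 dpci, and wells without a natriuretic peptide UMI were 9.70% at 1 dpci, 26.7% at 3 dpci and 70.06%, 57.9% and 56.5% at 7 dpci. Nearer to 1 dpci was OXPHOS as a whole, at 7.23% at 1 dpci, 7.75% at 3 dpci and 9.62%, 10.1% and 10.3% at 7 dpci. KCNV1 had 30.6 UMIs per 1000000 nuclear UMIs at 1 dpci, 11.4 at 3 dpci and 716, 1478 and 1132 at 7 dpci, and hsp90aa1.1 866 at 1 dpci, 786 at 3 dpci and 47.3, 57.6 and 60.5 at 7 dpci. With 1 plate and 1 sequencing run for both early times, no order was tested.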

How the data were processed

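Per the labels and the study's methods, single cells from ventricles were sorted into 384-well plates, processed by SORT-seq and mapped to Zv9. The submitters' processing notes name BWA 0.6.2, and the annotation is not given in the sources used here. What the authors deposited are estimated counts: UMIs of each gene in each well, corrected for UMI collisions, with low wells, ERCC spike-ins and mitochondrial genes still present. Of 17997 gene IDs, 14285 were named from a table of IDs and symbols, many in human spelling (vmhc is listed as MYH7, tnnt2a as TNNT2, tnni1b as TNNI1). Here 15 mitochondrial genes (2 without a symbol) and the spike-ins were removed, estimated counts were summed over the cardiomyocyte wells of each plate and rounded to whole numbers, and genes averaging 10 CPM or more on the 4 plates were tested two-sided with edgeR 4.0.16 (quasi-likelihood, TMM) in R 4.3.3, DESeq2 1.42.0 being an alternative. An exact permutation test of 3 plates against 1 cannot go below p = 0.25. No doublet caller was run, and wells above 3 times the median depth were left out in an alternative. The plates of 7 dpci differed by more than counting noise (chi-square per degree of freedom 3.71 to 9.81), so none is a library deposited again. Each was counted as 1 sample. The wells, gene lists and tests were chosen with earlier results of these data known. Named were nppa and nppb, the 10 largest increases and 10 largest decreases called with all 3 later plates on the same side, up to 3 called and the 2 most abundant members of each list, and mdh1, mdh2, idh2, hk1, pdk4 and pcna. Fold changes for genes at 0 in a group were set against a floor of 3 UMIs over that group.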

Additional observations from a re-analysis of the deposited data

How the results depend on the processing

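Among the 16 alternatives fitted for named genes, each of the 54 calls outside the rule kept its direction. For all genes, the count of calls (57, of which 31 higher and 26 lower at 7 dpci) became 186 (84 and 102) with no CPM filter, 17 (11 and 6) with at least 1000 UMIs per well, 240 (160 and 80) without wells above 3 times the plate median, 145 (99 and 46) with wells weighed equally, 389 (152 and 237) with no marker rule, 199 (131 and 68) at a marker share of 8% and 172 (139 higher) with DESeq2. It was 13 higher and 49 lower with library totals. Leaving out 1 plate of 7 dpci gave 65 to 798 calls, 32 to 508 higher and 33 to 290 lower. A marker share of 15% gave 120 calls (117 higher and 3 lower) but left 5 wells at 1 dpci, and was not used for single genes. The cause was not tested.

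Uncalled genes changed sign as follows. With library totals the log2 fold change was -0.35 for NDUFS8, -0.34 for CYC1, -0.48 for actn2b, -0.066 for HSPA8, -0.34 for RPLP0, -0.030 for eif5a, -0.18 for EIF1 and -0.42 for SLC25A3. With no marker rule it was 0.43 for hspb6, 0.56 for ckma, 0.46 for MRPL28, 0.093 for SLC25A5 and 0.38 for PDK4. With no CPM filter it was -0.070 for actn2b and -0.0085 for SLC25A3. It was also -0.022 for actn2b with at least 1000 UMIs, -0.055 for actn2b and -0.23 for ITGA5 without the deepest wells, -0.012 for actn2b, -0.21 for ITGA5 and 0.13 for HK1 with wells weighed equally, 0.013 for HK1 at 8% and 0.022 for ckma with DESeq2. Leaving out 1 plate of 7 dpci gave -0.14 to 0.23 for actn2b, -0.23 to 0.0070 for hspb6, -1.16 to 2.27 for ITGA5, -0.22 to 0.13 for ckma, -0.016 to 0.42 for RPLP0, -0.031 to 0.27 for SLC25A3 and -0.41 to 0.00058 for PDK4.

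No paired analysis was possible because the labels link no plate of 7 dpci to the single 1 dpci plate. The 3 plates of 7 dpci and 1 plate of 1 dpci limit what can be called. Plate 1 of 7 dpci is the shallowest and the only plate of its run, so depth and run cannot be told apart in the calls without it.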

Other observations

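The wells that the marker rule set aside differed in kind between the times. The 13, 12 and 16 such wells of the 7 dpci plates had median mitochondrial shares of 83.4%, 92.02% and 92.1% of non-ERCC UMIs and medians of 164, 214 and 189 nuclear UMIs, whereas the 82 wells of the 1 dpci plate had a median mitochondrial share of 40.2% and 1334 nuclear UMIs. As a share of nuclear UMIs alone, the 6 rule genes held medians of 8.75%, 12.21% and 14.6% in the wells set aside at 7 dpci and 4.53% in those at 1 dpci. With the rule applied to nuclear UMIs, an alternative chosen after seeing the data, 50 genes were called and 45 of them were among the 57.

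Nuclear UMIs per ERCC UMI compare captured RNA with the spike-in of the same well. Their medians were 1.21, 0.71 and 0.81 in the cardiomyocyte wells of the 7 dpci plates and 1.496 in those of the 1 dpci plate. Median ERCC UMIs themselves were 948, 3094 and 2573 at 7 dpci and 1711 at 1 dpci. The ratio thus also follows the spike-in counts, and time and run cannot be told apart in it. The detected genes per cardiomyocyte well had medians of 285, 483 and 455.5 at 7 dpci and 777 at 1 dpci.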
